A study of Mus musculus with 6 samples.

Results

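The 9 rows described here are the rows of the gene count table whose symbol begins with Hist1h, Hist2h, Hist3h or Hist4h, out of 29872 rows in all. The symbols of replication-dependent histone genes took this form until they were renamed, and the table uses both forms. The rule therefore found only part of the family: 4 H2A genes (Hist1h2al, Hist1h2an, Hist1h2ao and Hist1h2ap), 3 H2B genes (Hist1h2bp, Hist1h2bq and Hist1h2br) and 2 H4 genes (Hist1h4m and Hist1h4n). It found 0 genes of the H1 or H3 class, and 0 of the Hist2, Hist3 and Hist4 clusters. A further 61 histone rows carry newer symbols that RefSeq (GRCm38.p6) links to an older Hist name, and they serve here as the comparison.

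The series holds 3 CML libraries (LSCs, from a study of chronic myeloid leukemia stem cells) and 3 WT libraries (HSCs), from C57BL/6 mouse bone marrow. Both kinds of cell were untreated, grown ex vivo, and carry the gate Lin-Sca1+cKit+CD150+. The allele or promoter behind the CML cells and the age of the mice are not in the labels. Nor do these tell whether the 3 libraries of a group are separate mice or cultures: p-values then measure only the spread between libraries, which may be technical.

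Replication-dependent histone genes encode the core and linker histones that package newly copied DNA, and they are transcribed mainly in S phase. Their transcripts have no introns and, unlike other messenger RNAs, end in a conserved stem-loop rather than a poly(A) tail. The stem-loop-binding protein, encoded by Slbp, and the U7 small nuclear RNP direct the cut that forms this end, and the transcripts are degraded when DNA synthesis stops. Most of these genes lie in clusters, and many copies encode identical or nearly identical proteins.

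Of the 9 genes, 8 form 1 block of 50.7 kb in the Hist1 cluster (chr13:21786826-21837530, GENCODE M21 on GRCm38). Hist1h2an and Hist1h2bp lie at its start and are transcribed away from each other, with 242 bases between their gene models. Next come Hist1h2bq, Hist1h2ao and Hist1h4m, and then the same 3 kinds of gene in mirror order: Hist1h4n, Hist1h2ap and Hist1h2br. The ninth row, Hist1h2al, lies 29.4 Mb away (chr13:51202727-51203065) and is annotated as a processed pseudogene in GENCODE and as a transcribed pseudogene in RefSeq. All 8 genes of the block are annotated as protein-coding.

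**Figure D1:**
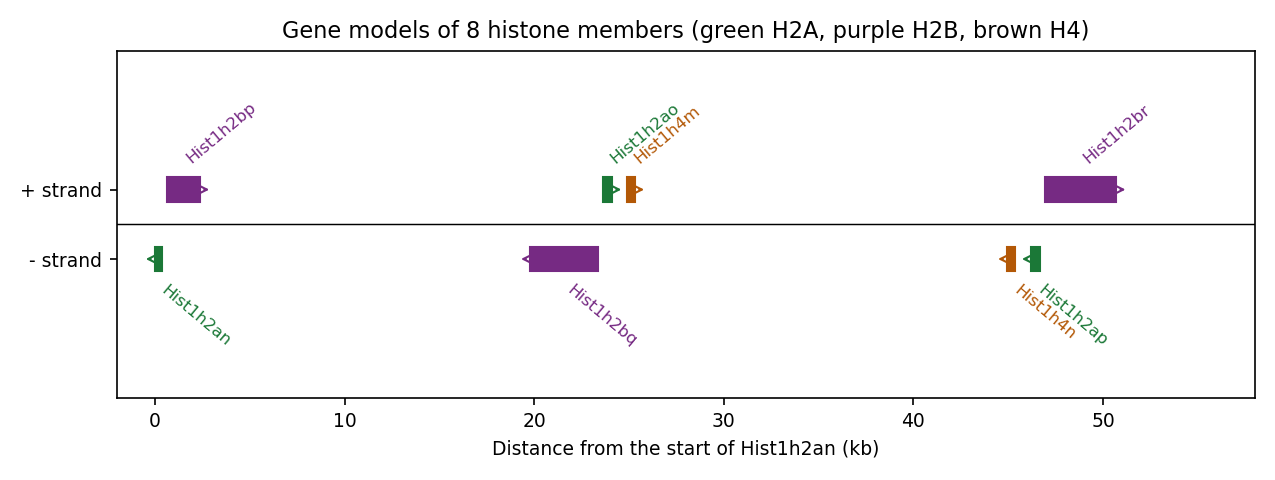
Gene models of the 8 block members by distance from the start of Hist1h2an (x axis, kb) and by strand (y axis), with arrows for the direction of transcription. The order of Hist1h2bq, Hist1h2ao and Hist1h4m is mirrored by Hist1h4n, Hist1h2ap and Hist1h2br within the 50.7 kb.

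The mirrored genes are near copies. The coding sequences of Hist1h2ao and Hist1h2ap were identical over 393 bases, those of Hist1h2bq and Hist1h2br over 381 bases, and those of Hist1h4m and Hist1h4n over 312 bases (GENCODE M21 transcripts). Hist1h2an differed from Hist1h2ao and from Hist1h2ap at 5 positions, and Hist1h2bp from Hist1h2bq and from Hist1h2br at 6. For the 6 mirrored genes, 100% of the 50-base windows of the coding sequence also occur in another histone gene of the table. That share was 85.8% for Hist1h2an, 79.2% for Hist1h2bp and, over its whole transcript, 67.6% for Hist1h2al. How long the reads were, and how a read matching several copies was divided, is not stated in the labels. In the table, 54 of the 54 entries of these rows were not exactly whole numbers (no rounding tolerance), against 40.1% to 41.8% of the entries above 0 of a library. The values of single genes are therefore uncertain, and sums over copies are given beside them.

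The stem-loop that marks this class of transcript was found in 5 of the 9 genes, and it is shown because it is the part that replaces the poly(A) tail. The search took either form capitalised here, or that form with A as the last base of its loop, on the transcript strand of the GENCODE M21 models:
Hist1h2ao: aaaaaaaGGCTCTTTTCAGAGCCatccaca
Hist1h2ap: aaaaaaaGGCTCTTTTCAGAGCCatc
Hist1h2bp: acacaaaGGCTCTTTTCAGAGCCacccaca
Hist1h4m: aactaaaGGCCCTTTTCAGGGCCatc
Hist1h4n: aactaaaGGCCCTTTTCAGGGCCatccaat
The H2A and H2B genes shared 1 form of the stem-loop and the H4 genes the other, with a base pair of the stem changed on both sides. It began 39 bases after the stop codon in both H2A genes, 28 after it in Hist1h2bp and 34 after it in both H4 genes. The transcript model of Hist1h2an ends at its stop codon, and that of the pseudogene Hist1h2al did not hold these letters. The longer models of Hist1h2bq and Hist1h2br continue into spliced downstream exons, and these letters were not in them.

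The promoters of the mirrored genes were also near copies in all 3 classes, and 4 windows are shown. The genes behind them had CML replicate 1 and WT replicate 3 as their highest libraries, as had 46 of the 58 other histone genes tested. A link between promoter and library order was not tested. Each window runs from 250 bases before to 50 bases after the start of the gene (RefSeq, GRCm38.p6), read in the direction of transcription. Capitals mark, on either strand, the 4 motifs that the next paragraph spells out:
Hist1h4m: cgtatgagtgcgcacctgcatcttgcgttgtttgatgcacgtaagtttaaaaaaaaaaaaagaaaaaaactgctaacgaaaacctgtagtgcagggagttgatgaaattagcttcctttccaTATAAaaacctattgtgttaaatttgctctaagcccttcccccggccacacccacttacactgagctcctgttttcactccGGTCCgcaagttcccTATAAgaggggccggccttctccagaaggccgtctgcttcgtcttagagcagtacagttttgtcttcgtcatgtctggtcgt
Hist1h4n: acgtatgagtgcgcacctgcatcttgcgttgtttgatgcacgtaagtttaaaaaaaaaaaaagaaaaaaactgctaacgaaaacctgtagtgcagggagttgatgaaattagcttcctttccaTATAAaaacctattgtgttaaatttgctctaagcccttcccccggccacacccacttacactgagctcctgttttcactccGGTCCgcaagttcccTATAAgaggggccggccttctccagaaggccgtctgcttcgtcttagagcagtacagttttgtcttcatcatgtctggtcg
Hist1h2br: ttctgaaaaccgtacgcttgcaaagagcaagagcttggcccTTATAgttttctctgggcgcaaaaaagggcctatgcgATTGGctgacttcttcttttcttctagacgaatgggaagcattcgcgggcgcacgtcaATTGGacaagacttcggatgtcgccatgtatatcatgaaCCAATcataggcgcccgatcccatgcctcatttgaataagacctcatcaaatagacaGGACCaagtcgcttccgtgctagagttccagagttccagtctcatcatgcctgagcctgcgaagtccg
Hist1h2ap: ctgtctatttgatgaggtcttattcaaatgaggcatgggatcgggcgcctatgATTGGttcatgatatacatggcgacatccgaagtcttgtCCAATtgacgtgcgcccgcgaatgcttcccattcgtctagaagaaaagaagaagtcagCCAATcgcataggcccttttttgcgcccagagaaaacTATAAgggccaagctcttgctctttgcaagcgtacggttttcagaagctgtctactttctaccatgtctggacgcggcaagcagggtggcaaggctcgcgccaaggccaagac
The 4 windows stand at chr13:21811496-21811795 (plus strand), chr13:21832148-21832447 (minus), chr13:21833493-21833792 (plus) and chr13:21833426-21833725 (minus). Those of Hist1h4m and Hist1h4n had 1 mismatch over 299 bases when shifted by 1 base. The window of Hist1h2bq was identical to that of Hist1h2br over all 300 bases. Those of Hist1h2ao and Hist1h2ap, whose annotated starts differ, were identical over the 200 bases they share when shifted by 100 bases. Divergent neighbours share most of their window: the overlap was 261 bases for Hist1h2an and Hist1h2bp, 267 for Hist1h2ao and Hist1h2bq and 233 for Hist1h2ap and Hist1h2br.

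TATAA, the core of the TATA box, was present in 8 of the 8 member windows, against 24.9% of 32851 promoter windows in all. Other histone genes had it too: 13 of 15 H2A windows, 10 of 14 H2B windows and 9 of 10 H4 windows. In the H2B windows of the members TATAA lay only on the opposite strand, in the stretch shared with the divergent H2A neighbour. The 8 windows therefore do not hold 8 separate sites. CCAAT, the letters bound by NF-Y, was in the 6 H2A and H2B windows of the members and in neither H4 window, against 37.4% of all windows. Of the other histone genes, 15 of 15 H2A windows, 14 of 14 H2B windows and 3 of 10 H4 windows had it. GGTCC, letters within the element that the H4 factor HINFP binds, was in both H4 windows of the members, in 5 of the 8 in all and in 45.5% of all windows. It was in 9 of 10 windows of the other H4 genes, 4 of 15 of the other H2A genes and 4 of 14 of the other H2B genes. ATTTGCAT, the octamer that OCT1 binds in H2B promoters, was in 0 of the 8 windows, against 7 of 14 windows of the other H2B genes and 1.7% of all windows. None of these motifs overlapped another in the windows printed.

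The libraries held 13323552 to 17926866 counts. The 9 rows took between 0.099% and 0.174% of the counts of a library, and all 70 histone rows between 0.98% and 1.61%. The gate genes Kit, Ly6a (Sca1) and Slamf1 (CD150) were detected in every library, with a summed level of 295 to 594 CPM (counts scaled to a common library size) in CML and 348 to 387 CPM in WT. Slamf1 was lower in CML (14.2 against 24.7 CPM, adjusted p = 0.0470, edgeR). Ly6a (106 against 52.2 CPM, adjusted p = 0.173) and Kit (309 against 292 CPM, adjusted p = 0.842) had higher means in CML and did not pass (edgeR). Of 7 lymphoid genes, 6 had too few counts to be tested, and the seventh was Ptprc, which encodes the CD45 carried by all white blood cells. Of all tested genes, 10.2% were called higher in CML and 7.20% lower, the shares to set beside the marker counts that follow. The 7 mast cell and basophil markers were detected, and 5 of the 7 were higher in CML and 0 lower. Their summed level was 1894 to 6437 CPM in CML and 121 to 269 CPM in WT. Of 5 tested granulocyte and monocyte markers, 3 were higher in CML (Itgam, Csf1r and Ly6c2) and 0 lower, and all 6 summed to 117 to 203 CPM in CML and 64.6 to 139 CPM in WT, most of it Mpo. Of 3 tested erythroid markers, 1 was higher (Klf1) and 1 lower (Hbb-bs), with sums over 5 genes of 6.97 to 29.98 and 48.5 to 58.4 CPM. Of 3 tested megakaryocyte markers, 0 were higher and 1 lower (Itga2b), with sums over 4 genes of 80.7 to 149.97 and 176 to 192 CPM. No marker was at 0 in all 6 libraries, and the part of these markers in the histone values was not tested.

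The comparison of CML with WT found no member past the threshold. All 9 genes had a lower mean in CML than in WT, by log2 fold changes from -0.40 to -0.05, though with scaling by library totals Hist1h2al (0.04) and Hist1h2bp (0.04) were positive. Of these, 0 of the 9 were called higher and 0 lower (edgeR quasi-likelihood test, Benjamini-Hochberg adjusted p under 0.05 over 16221 genes). Of all tested genes, 17.4% were called, 10.2% higher and 7.20% lower. The median log2 fold change of the 9 was -0.26, and that of all tested genes was 0.00. All 9 passed the filter on low counts. At an unadjusted p under 0.05, 0 were higher and 1 lower, beside 2696 higher and 2448 lower of the 16221 tested genes. The DESeq2 and limma-voom tests also called 0 of the 9, where they called 18.5% and 16.1% of all genes. The members called were also 0 with library totals (17.2% of all genes called), upper-quartile scaling (17.6%), no low-count filter (11%), a mean of at least 50 counts (19.0%) and a replicate block (17.3%). The standard errors ran from 0.15 to 0.29, so a difference of this size could not be told from the spread between libraries, and the test does not show that the levels were equal.

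Most of the 9 genes shared a difference between the libraries of a group. CML replicate 1 and WT replicate 3 were the 2 highest libraries for 6 of the 9 genes, as they were for 46 of the 58 other histone genes tested and for 8.09% of all tested genes. CML replicates 2 and 3 were below the mean of the 6 libraries for each of the 9, a trait not counted over all tested genes. Relative to that mean, the log2 values ran from -0.49 to -0.05 in CML replicate 2 and from -0.76 to -0.32 in CML replicate 3. Hist1h2al, Hist1h2an and Hist1h2ao were the exceptions to the order of the highest libraries.

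**Figure D2:**
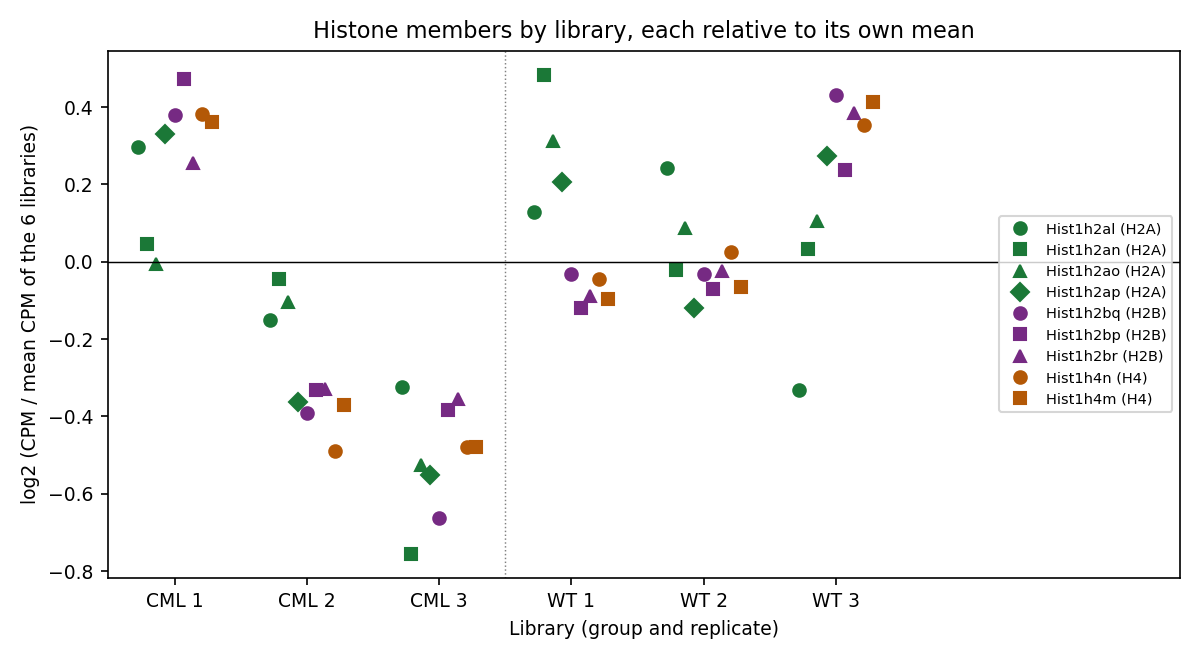
Level of each of the 9 histone members in each library (x axis, group and replicate) as log2 of its CPM over its mean in the 6 libraries (y axis); colours mark the histone class. Every member is below 0 in CML replicates 2 and 3, and the H2B and H4 members are above 0 in CML replicate 1 and WT replicate 3.

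The H4 genes were the most abundant. H4 pairs with H3 at the core of the nucleosome, and its protein sequence is among the most conserved known. Hist1h4m had levels of 610, 367 and 341 CPM in CML replicates 1, 2 and 3 and of 444, 454 and 632 CPM in WT replicates 1, 2 and 3. WT replicate 3 and CML replicate 1 were the high libraries, and the groups overlapped. The CML mean was 439 ± 149 CPM and the WT mean 510 ± 106 CPM (SD, n = 3). The fitted log2 fold change was -0.22 with an SE of 0.24 (adjusted p = 0.588, edgeR).

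Hist1h4n, its mirror copy, stood at 501, 274 and 276 CPM in CML and at 372, 391 and 491 CPM in WT. The same 2 libraries were highest, and CML replicates 2 and 3 lay below every WT library. Its log2 fold change was -0.26 (SE 0.24, adjusted p = 0.524, edgeR). Hist1h4m held 53.7% to 57.3% of the summed counts of this pair in the 6 libraries. The sum of both was 1112, 641 and 616 CPM in CML and 817, 845 and 1124 CPM in WT, with the same 2 libraries highest. Per length, the mean levels were 1181 CPM per kb of exon for Hist1h4m and 894 for Hist1h4n.

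The H2B genes came next. H2B pairs with H2A in dimers on both faces of the nucleosome. Hist1h2br stood at 194, 130 and 127 CPM in CML and at 153, 160 and 212 CPM in WT. Again CML replicate 1 and WT replicate 3 were highest, and the groups overlapped. The log2 fold change was -0.22 (SE 0.18, adjusted p = 0.458, edgeR). Hist1h2bq, its mirror copy, was scarcer, at 25.3, 14.8 and 12.3 CPM in CML and 19.0, 19.0 and 26.2 CPM in WT. In both copies WT replicate 3 was the highest library and CML replicate 3 the lowest. The log2 fold change of Hist1h2bq was -0.29 (SE 0.26, adjusted p = 0.492, edgeR).

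Although their coding sequences are identical, Hist1h2bq received only 8.8% to 11.5% of the counts of this pair in the 6 libraries. The pair summed to a CML mean of 168 ± 44.8 CPM and a WT mean of 197 ± 36.5 CPM (SD, n = 3). Hist1h2bp, the H2B gene at the start of the block, stood at 174, 100.02 and 96.4 CPM in CML and at 116, 120 and 148 CPM in WT. CML replicate 1 was its highest library, and CML replicates 2 and 3 were below every WT library. It had the smallest log2 fold change of the 9, at -0.05 (SE 0.23, adjusted p = 0.916, edgeR). Levels per length are not compared for the H2B genes, since the models of Hist1h2bq and Hist1h2br include 2015 and 2212 bases of exon.

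**Figure D3:**
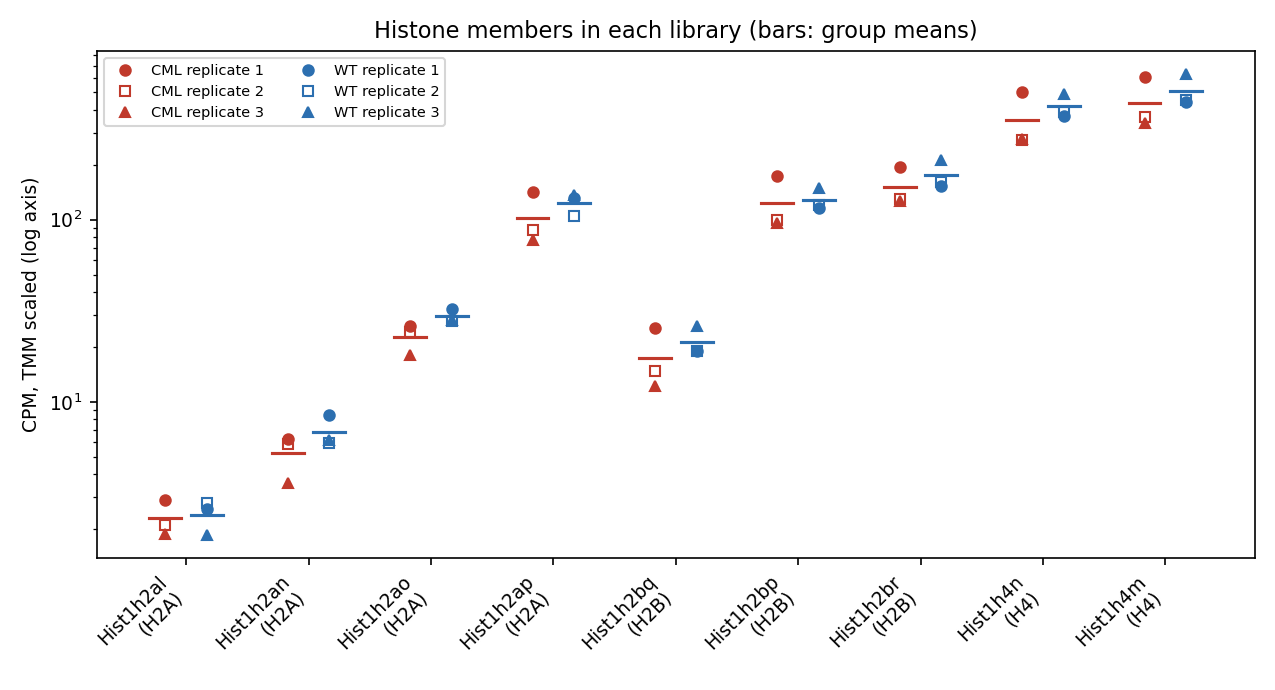
CPM of each member on a log axis (y) for the CML libraries (red) and the WT libraries (blue), with a bar at the mean of each group and genes along the x axis by class. The H4 genes lie highest and Hist1h2al lowest, at 1.87 to 2.89 CPM, and the groups overlap for 8 of the 9 genes.

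The H2A genes spanned the widest range of levels. H2A forms the other part of the dimer with H2B. Hist1h2ap stood at 143, 88.1 and 77.2 CPM in CML and at 131, 104 and 137 CPM in WT. CML replicate 1 was highest and CML replicates 2 and 3 lay below every WT library. The log2 fold change was -0.27 (SE 0.22, adjusted p = 0.452, edgeR).

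Hist1h2ao, with the same coding sequence, stood at 26.0, 24.3 and 18.2 CPM in CML and at 32.4, 27.7 and 28.1 CPM in WT. It was the only one of the 9 whose groups did not overlap, with each CML library below each WT library, a separation in this direction that held for 16.5% of all tested genes. Its log2 fold change was -0.37 (SE 0.15, adjusted p = 0.117, edgeR), which did not pass. Hist1h2ao held 15.4% to 21.6% of the counts of its pair, and the pair summed to 125 ± 38.3 CPM in the CML libraries and 153 ± 18.6 CPM in the WT libraries (SD, n = 3). The sum overlapped between the groups, with CML replicate 1, at 169 CPM, above the highest WT library, at 165 CPM.

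Hist1h2an stood at 6.21, 5.84 and 3.57 CPM in CML and at 8.42, 5.94 and 6.17 CPM in WT, with the largest log2 fold change of the 9 in size (-0.40, SE 0.25, adjusted p = 0.302, edgeR). Here WT replicate 1 was highest and CML replicate 3 lowest. The pseudogene Hist1h2al stood at 2.89, 2.12 and 1.88 CPM in CML and at 2.57, 2.78 and 1.87 CPM in WT. Unlike in the H2B and H4 genes, WT replicate 3 was its lowest library, and its log2 fold change was -0.07 (SE 0.29, adjusted p = 0.909). Per length, the H2A means ran from 6.93 CPM per kb for Hist1h2al through 15.3 for Hist1h2an and 54.4 for Hist1h2ao to 235 for Hist1h2ap.

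Summed by class, the members gave the same picture. The H2A members summed to 133 ± 39.9 CPM in the CML libraries and 163 ± 19.0 CPM in the WT libraries (SD, n = 3), a log2 ratio of -0.29. The H2B members summed to 291 ± 88.9 and 325 ± 54.3 CPM (log2 ratio -0.16), and the H4 members to 790 ± 279 and 929 ± 170 CPM (log2 ratio -0.23). In each class CML replicate 1 was above the mean of the WT libraries and CML replicates 2 and 3 were below the lowest of them. These sums do not depend on how reads were divided within a class of members, and no test was made on them. They can still depend on how reads were divided with histone genes outside the 9, which share windows with them. Over all histone rows of a class, members included, the log2 ratios were -0.18 for H2A, -0.18 for H2B and -0.24 for H4. For the members without CML replicate 1, the log2 ratios were -0.56 for H2A, -0.44 for H2B and -0.57 for H4. With each other library left out in turn they ran from -0.39 (without WT replicate 2) to -0.13 (without CML replicate 3) for H2A, and from -0.24 and -0.32 (both without WT replicate 1) to -0.01 and -0.08 (both without WT replicate 3) for H2B and H4.

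The calls depended on 1 library. Without CML replicate 1, 4 of the 9 genes were called lower and 0 higher, where 19.0% of all genes tested in that fit were called, 11.5% higher and 7.44% lower. They were Hist1h2ap (log2 fold change -0.59, adjusted p = 0.0133), Hist1h2bq (-0.67, 0.0273), Hist1h4m (-0.53, 0.0404) and Hist1h4n (-0.61, 0.0117), by the edgeR quasi-likelihood test. The median of the 9 was then -0.53. In the same fit 32 of the 58 other histone genes tested were called lower. Leaving out any other library gave 0 calls among the 9, with medians from -0.31 without WT replicate 2 to -0.10 without CML replicate 3. Of all genes, 11.2% and 10.7% were called without CML replicates 2 and 3, and 11%, 8.73% and 24.5% without WT replicates 1, 2 and 3. The labels give no reason to leave out a library.

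**Figure D4:**
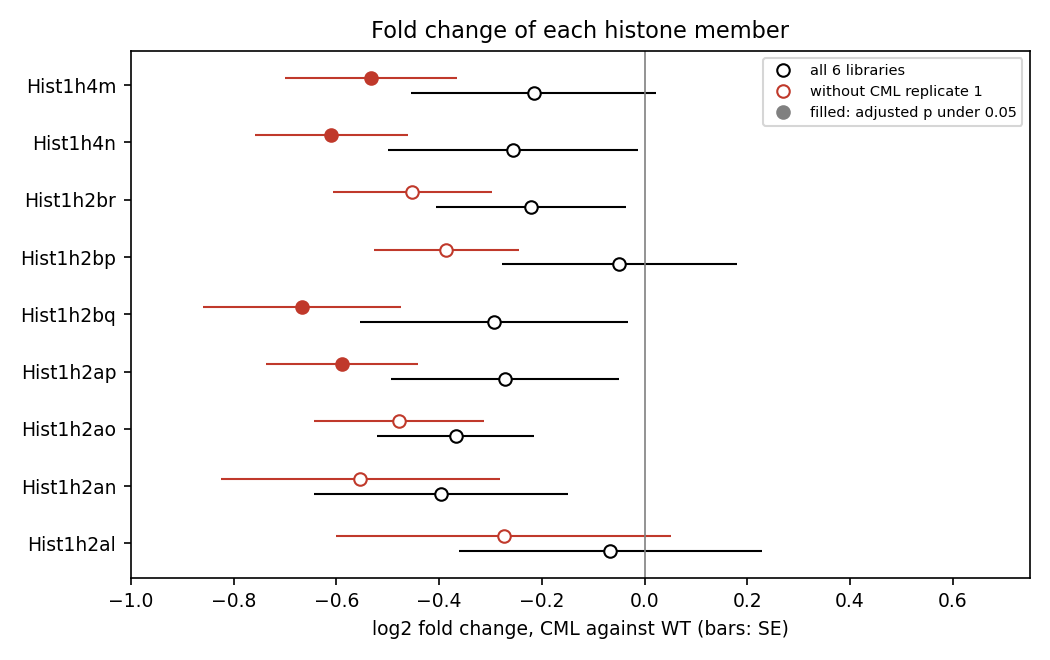
Log2 fold change of CML against WT (x axis, bars show the SE) for each member (y axis), with all 6 libraries in black and without CML replicate 1 in red; filled points have an adjusted p under 0.05. No point is filled with all 6 libraries, and 4 are filled without CML replicate 1.

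The other 61 histone rows, under newer symbols, gave medians near those of the members. Of these, 58 were tested, 0 were called higher and 0 lower, and 50 of the 58 had a lower mean in CML, with a median log2 fold change of -0.20. Without CML replicate 1 it was -0.47. It was -0.05 (40 of 58 negative) when CML replicate 3 was left out, -0.09 without CML replicate 2 and without WT replicate 3, and -0.11 with library totals (46 of 58 negative). At an unadjusted p under 0.05, 0 were higher and 5 lower, beside 2696 higher and 2448 lower of all 16221 tested genes. DESeq2 called 0 higher and 2 lower (H2ac6 and H3c14), and limma-voom 0 in either direction. Without WT replicate 3, 2 were called lower (H2bc21 and H3c14), and without CML replicate 3, 1 was called higher (H2bu2). By class, the medians over the other genes were -0.24 for H2A (14 genes), -0.20 for H2B (16), -0.21 for H3 (12), -0.24 for H4 (11) and 0.06 for the linker histone H1 (5). Whether the members differ from these genes was not tested.

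By cluster, the summed levels of all 70 rows had log2 ratios of -0.16 for Hist1, -0.23 for Hist2, 0.34 for Hist3 and -0.18 for Hist4, which is 1 gene. For Hist3 and Hist4, 1 library turned the direction: Hist3 was at -0.04 without CML replicate 1, and Hist4 at 0.01 without CML replicate 3. Hist1 ran from -0.44 without CML replicate 1 to -0.04 without CML replicate 3. The 3 rows of Hist3 had positive log2 fold changes. The largest was that of H2bu2 (Hist3h2ba), at 0.85 with an SE of 0.41, which missed the threshold (adjusted p = 0.224, edgeR). It was called higher without CML replicate 3 (log2 fold change 1.17, adjusted p = 0.00833, edgeR). Its levels were 63.2, 35.7 and 20.1 CPM in CML against 19.7, 21.3 and 25.1 CPM in WT. The lowest adjusted p among the 58 was that of H3c14, an H3 gene of the Hist2 cluster, with 11.8, 4.96 and 3.69 CPM in CML against 37.4, 33.8 and 15.5 CPM in WT (fitted difference -2.08 on the log2 scale, SE 0.56, adjusted p = 0.0633, edgeR). Its adjusted p was 0.00748 by DESeq2, and by edgeR 0.00461 without CML replicate 1, 0.0302 without WT replicate 3 and 7.15e-05 with the replicate block. H3c14 did not pass with limma-voom, other scalings or filters, or any other library left out. The lowest adjusted p of the 58 was 0.061 by limma-voom, and by edgeR 0.059 with library totals and 0.0717 with upper-quartile scaling.

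Genes that act on histone transcripts were compared in the same fit, in which 10.2% of all tested genes were called higher and 7.20% lower. Of 16 genes of 3' end processing, 0 were called higher and 0 lower, with a median log2 fold change of -0.06. By p under 0.05 without adjustment, 0 were higher and 3 lower, beside 2696 higher and 2448 lower of all 16221 tested genes. Slbp averaged 119 ± 10.04 CPM over the CML libraries and 121 ± 12.9 CPM over the WT libraries (SD, n = 3), and its log2 fold change was -0.03 with an SE of 0.12 (adjusted p = 0.909, edgeR). The lowest adjusted p of this list was that of Cstf2, a cleavage stimulation factor subunit, at 0.0613 (log2 fold change -0.31). Of 14 tested genes of histone gene transcription, 1 was higher and 0 lower: Ccne1, encoding cyclin E1, which activates the histone gene coactivator NPAT, rose by 0.82 on the log2 scale (SE 0.22, adjusted p = 0.0223). Npat itself was at 117 ± 4.92 and 128 ± 17.6 CPM (SD, n = 3; log2 fold change -0.13, adjusted p = 0.495).

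Of 12 genes of histone transcript decay, 0 were higher and 2 lower. Atr, the checkpoint kinase of stalled replication, fell by 0.70 on the log2 scale (SE 0.16, adjusted p = 0.0101, edgeR), and Tut4, a terminal uridylyltransferase, fell by 0.63 (SE 0.17, adjusted p = 0.0224). Of 26 histone chaperone genes, 0 were higher and 2 lower. Npm1, encoding nucleophosmin, fell from 920 ± 111 CPM in WT to 547 ± 68.4 CPM in CML (SD, n = 3; adjusted p = 0.0025), and Nap1l1, a carrier of H2A and H2B, fell from 366 ± 58.1 to 229 ± 10.3 CPM (adjusted p = 0.0034).

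Among 12 tested replication-independent histone genes, most of whose transcripts carry a poly(A) tail (that of H2ax is also made with a stem-loop), 0 were higher and 1 lower. H2az1, encoding the variant H2A.Z, stood at 1057, 952 and 905 CPM in CML and at 1656, 1644 and 1103 CPM in WT. Each CML library was below each WT library, and the log2 fold change was -0.60 (SE 0.16, adjusted p = 0.0231, edgeR). WT replicate 3, the WT library with the highest sum over the 9 members, was here the lowest of WT. In 0 of the 12 were CML replicate 1 and WT replicate 3 the 2 highest libraries, against 8.09% of all tested genes. In a list of 12 genes, 0 is near that share, and the difference was not tested.

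Cell cycle genes were compared because histone transcripts are made in S phase. Of 45 S phase genes, 3 were higher and 2 lower, with a median log2 fold change of 0.03. Tyms, encoding thymidylate synthase, stood at 139, 131 and 137 CPM in CML and at 95.6, 95.5 and 95.5 CPM in WT, a rise of 0.50 on the log2 scale (adjusted p = 0.0050, edgeR). Lig1, encoding DNA ligase I, rose by 0.43 (adjusted p = 0.0357) and Ccne1 was the third. Tipin and Rfc4, of the replication fork, fell by 0.41 and 0.47 on the log2 scale (adjusted p = 0.0288 and 0.0374). For 5 of the 45 (11.1%), CML replicate 1 and WT replicate 3 were the 2 highest libraries, near the 8.09% of all tested genes. Of 20 genes of G2 and mitosis, 0 were higher and 3 lower, with a median of -0.26: Ccnb1, Cdk1 and Ube2c fell by 0.50, 0.45 and 0.52 (adjusted p = 0.0084, 0.0183 and 0.0121). Over the 7 lists together, 3 of 137 tested genes were higher (2.19%, against 10.2% of all genes) and 10 lower (7.30%, against 7.20%). Without CML replicate 1, 2 were higher and 10 lower, beside 11.5% and 7.44% of all genes. Without CML replicate 2 the numbers were 1 and 3 (7.14% and 4.06% of all genes), and without CML replicate 3 they were 1 and 6 (7.27% and 3.44%). Without WT replicate 1 they were 1 and 6 (6.94% and 4.08%), without WT replicate 2 they were 1 and 5 (6.02% and 2.71%), and without WT replicate 3 they were 12 and 28 (12% and 12.5%). In bulk libraries the share of cells in S phase and the histone RNA per cell cannot be told apart. A difference in either was not tested.

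Some other transcripts without a poly(A) tail had the library order of most of the members, and some did not. These were chosen after their values were seen. Rpph1, the RNA of RNase P, stood at 912, 566 and 522 CPM in CML and at 731, 780 and 1051 CPM in WT. Rn7s1, a 7SL RNA of the signal recognition particle, stood at 4398, 2872 and 2348 CPM in CML and at 3799, 3181 and 4126 CPM in WT. In both, CML replicate 1 and WT replicate 3 were the 2 highest libraries, as they were for 8.09% of all tested genes. Rmrp was at 459, 282 and 234 CPM in CML and at 441, 476 and 627 CPM in WT, with CML replicate 1 the highest of its group but below WT replicate 2. Rn7sk, the 7SK RNA, was at 1238, 1041 and 746 CPM in CML and at 1364, 1276 and 1684 CPM in WT, with every CML library below every WT library. A row of another kind, CT010467.1, was at 12408 CPM in CML replicate 3 and at 2.93 to 111 CPM in the other libraries, an order that the members did not share. Whether RNA was selected or primed by its poly(A) tail is not stated in the labels, and the part of these differences in the histone values was not tested.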

How the data were processed

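The authors deposited estimated counts per gene, with 1 column per library and no scaling to a common total. The submitters' processing notes list Partek 8.0, STAR 2.7.3a and mm10, with no roles. Total RNA went into Nextera XT libraries, per the labels' protocols. Counts were rounded, filtered with filterByExpr of edgeR 4.0.16 (minimum count 10, leaving 16221 genes) and tested in R 4.3.3 with TMM scaling, robust quasi-likelihood and group as the only term, two-sided. The SE is the size of the log2 fold change over the root of F. CPM are TMM-scaled, with mean and SD over 3 libraries. Alternatives used DESeq2 1.42.0, limma-voom (limma 3.58.1), other scalings and filters, a replicate block and each library left out. Older symbols were matched through RefSeq synonyms. Of the 9 members, 9 matched GENCODE M21 and 8 a RefSeq promoter window.

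The members and lists were chosen with earlier results of these data known, and the 61 other histone rows after the table's symbols were seen. All 9 members are named. Named from each list are up to 4 called genes with the lowest adjusted p, or else the gene with the lowest p. Others in the text (Rfc4, Slbp, Npat, H2bu2, H3c14, H2ac6, H2bc21, H4c9, H2ax, the cell type markers and the non-coding RNAs) were added after their values were seen. The test was checked on simulated data.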

Additional observations from a re-analysis of the deposited data

How the results depend on the processing

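With all 6 libraries, 0 of the 9 members were called higher and 0 lower under edgeR, DESeq2, limma-voom, scaling by library totals or upper quartile, no low-count filter, a mean of at least 50 counts (where Hist1h2al was not tested) and the replicate block. Leaving out each library gave 0 members called higher and between 0 and 4 lower. The 4 came without CML replicate 1, and the cause was not tested. Hist1h2bp turned positive when scaled by library totals (0.044), and without CML replicate 3 (0.101), CML replicate 2 (0.081) or WT replicate 3 (0.069), within a range of -0.386 to 0.101 with a library left out. Hist1h2al did so with library totals (0.037) and without CML replicate 3 (0.061) or WT replicate 2 (0.042), within a range of -0.274 to 0.061. In the fits that turned positive the adjusted p ran from 0.829 to 0.961. Library totals moved the median of all tested genes by 0.09 on the log2 scale. The summed levels of the members moved by less than the spread (1 SD) between libraries under every alternative run for them, and kept their sign. That spread, 0.32 to 0.38 on the log2 scale, was larger than the log2 ratios themselves, so staying within it is a weak check.

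The genes called among all tested numbered 2820, and 1466 to 4122 with a library left out. The genes of the 7 lists held 3 called higher and 10 lower. With library totals 8 were higher, and with a library left out 1 to 12 were higher and 3 to 28 lower, the largest numbers without WT replicate 3.

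The replicate numbers in the titles gave no sign of pairing the libraries: deviations from the group means correlated by -0.02, -0.05 and 0.01 for numbers 1, 2 and 3, and 0 of the 3 CML libraries correlated best with the WT library of its own number. With 3 libraries in a group, such correlations cannot exclude a pairing. With the replicate block 0 of the 9 members were called (median log2 fold change -0.31, lowest adjusted p = 0.0852), and 2807 genes were called in all. The block called 2 of the 58 other histone genes lower (H2ac6 and H3c14), and the fit with no low-count filter 2 of 61 (H2bc21 and H4c9).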
